A study of Mus musculus with 12 samples.

Results

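The nuclear genes for subunits of the mitochondrial respiratory chain were followed through rhabdomyolysis-induced acute kidney injury in mouse kidney. Members were taken by gene symbol: the Nduf series for complex I, Sdha to Sdhd for complex II, 8 Uqcr symbols for complex III, 11 Cox symbols for complex IV and all symbols starting with Atp5 for complex V, leaving out 4 symbols with the suffix -ps. The rule gave 79 of the 32047 genes in the deposited table: 39 for complex I, 4 for complex II, 8 for complex III, 11 for complex IV and 17 for complex V. No measured value entered the rule. The table was named with older symbols, so Atp5a1 and Atp5b are the F1 alpha and beta subunits, and Atp5g1, Atp5g2 and Atp5g3 the genes also called Atp5mc1, Atp5mc2 and Atp5mc3. The rule sorts Ndufa4 with complex I, although its product is now known as a part of complex IV.

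The study measured poly(A)-selected RNA of renal tissue in 12 libraries, 4 in each of 3 groups. FGF23 is a hormone of bone that acts on the kidney, and the form overexpressed here carries the substitutions R176Q and R179Q. Overexpression began 3 weeks before injury; rhabdomyolysis, in which skeletal muscle breaks down, was the model. The groups are NC (an abbreviation left unexplained by the labels), AKI_mcherry, injured and named for the fluorescent protein mCherry, and AKI_FGF23_R176QR179Q, injured and named for the hormone variant (below, the variant libraries). The labels give no strain, age, sex, vector, promoter or collection day, and no uninjured group with the variant, and they do not say whether NC received an mCherry construct. AKI_mcherry against NC is called the change after injury here, but injury and anything that construct does cannot be told apart in it. Whether each library is a different animal is not stated, and the p-values therefore reflect the variation among these samples alone, which may be technical.

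Complexes I to IV pass electrons from NADH and succinate to oxygen, and complexes I, III and IV pump protons across the inner mitochondrial membrane. Complex V, the ATP synthase, uses the returning protons to make ATP. The proximal tubule of the kidney depends on this pathway for reabsorption, and the chain joins subunits from nuclear genes with 13 encoded in mitochondrial DNA. Complexes I, III, IV and V join a few large subunits, among them those with the cofactors or the catalytic sites, with many small accessory subunits. Complex II has 4 subunits in all.

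Library totals ran from 55324078 to 70638283 counts. Levels of a gene across libraries are given in CPM, counts scaled to library size with trimmed mean (TMM) factors, and levels between genes in FPKM, which also divides by gene length. All 10 proximal tubule marker genes were detected, with summed levels of 34903 to 39175 CPM in NC, 6723 to 17578 in AKI_mcherry and 3063 to 6204 in the variant libraries. After injury 10 of these 10 were lower. Between the injured groups 5 were higher with the variant and 1, Kap, was lower (log2 -2.53). In that comparison 8 of the 10 had a log2 fold change above 0 (median 0.93), so the lower sum with the variant does not describe most of these markers. Markers of the thick ascending limb and of the distal convoluted tubule each had 4 of 5 lower after injury and 4 of 5 higher with the variant, and their sums were 5808 to 8640 and 974 to 1887 CPM in NC, 3087 to 3514 and 435 to 822 in AKI_mcherry, and 4968 to 7449 and 1148 to 1421 with the variant. Collecting duct markers had 5 of 6 lower and then 3 of 6 higher, and endothelial markers 1 of 5 lower and then 3 of 5 higher. Other lists differed. After injury fibroblast markers had 3 of 5 higher and 0 lower, and leukocyte markers 3 of 7 higher and 4 lower, where 27.2% of all genes were higher. Podocyte markers had 0 of 4 called. Between the injured groups these lists had 0 of 5, 1 of 6 and 0 of 4 higher, and 0 lower. Over all genes tested 26.0% were lower after injury, above the 20% of endothelial markers, and 11.7% were higher between the injured groups (edgeR adjusted p under 0.05). In such bulk tissue, fewer cells of a type and less RNA per cell cannot be told apart, and the part of cell composition in the results below was not tested.

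Across the members the median log2 ratio to the NC mean was -0.17 to 0.25 in NC and -0.80 to -0.57 in the variant libraries. In AKI_mcherry it was -0.63 to -0.11, and replicate 2, at -0.11, lay inside the NC range. With the variant, against AKI_mcherry, 56 members had a log2 fold change below 0 and 22 above (median -0.17). Over all 18824 genes tested there, 9289 were below 0. The members' median was 0.04 when libraries were scaled by their totals alone. Of the 78 members tested, 37 were lower and 0 higher in AKI_mcherry than in NC (edgeR adjusted p under 0.05), where 26.0% of all 18724 genes tested were lower and 27.2% higher. The median log2 fold change of the members was -0.38, against -0.0026 over all genes. Between the injured groups 4 members were higher (5.13%) and 6 lower (7.69%) with the variant. Both shares lay below those of all 18824 genes, 11.7% higher and 11.4% lower. The variant libraries against NC had 68 members lower and 0 higher, where 20.6% of 19005 genes were lower and 21.7% higher, and the members' median was -0.61. The comparisons share groups, so these counts are not independent of one another. The remaining member, Ndufa11b, had at most 2 counts in any library and was not tested.

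Sorted by the part they play in their complex, the members had medians after injury from -1.19 for the catalytic subunits of complex II to -0.09 for the small subunits of complex III. The 4 members higher with the variant than without it in injured kidney were Ndufs1, a core subunit of complex I, Sdha, a catalytic subunit of complex II, Uqcrc2, a core protein of complex III, and Atp5a1, a subunit of the F1 head. The 6 lower ones were Ndufa1, Ndufa13, Ndufa4, Uqcr10, Uqcrq and Cox7c, all small accessory subunits. Of the 4 higher calls 0 were kept in every fit leaving out 1 library, and of the 6 lower calls 0. The share of members called after injury changed with a correction for gene length in some roles and not in others. With an offset for each library's trend with length, added after the data were seen, the calls rose from 12 to 22 of 31 for the other subunits of complex I (median -0.23 to -0.55) and from 1 to 4 of 5 for the small subunits of complex III (median -0.09 to -0.39). The core subunits of complex I had 6 of 7 lower in both fits (median -0.60 and -0.83). Between the injured groups the offset kept the 4 higher calls, added 2, and kept 2 of the 6 lower ones, Uqcr10 and Ndufa13. Roles were assigned from textbook knowledge after the values were known, so the division is a description. Of the 78 members, 4 were lower after injury and higher with the variant, 31 were lower after injury with no call between the injured groups and lower than NC with the variant, and 27 passed the test in the variant libraries against NC but in neither of the other comparisons.

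**Figure D1:**
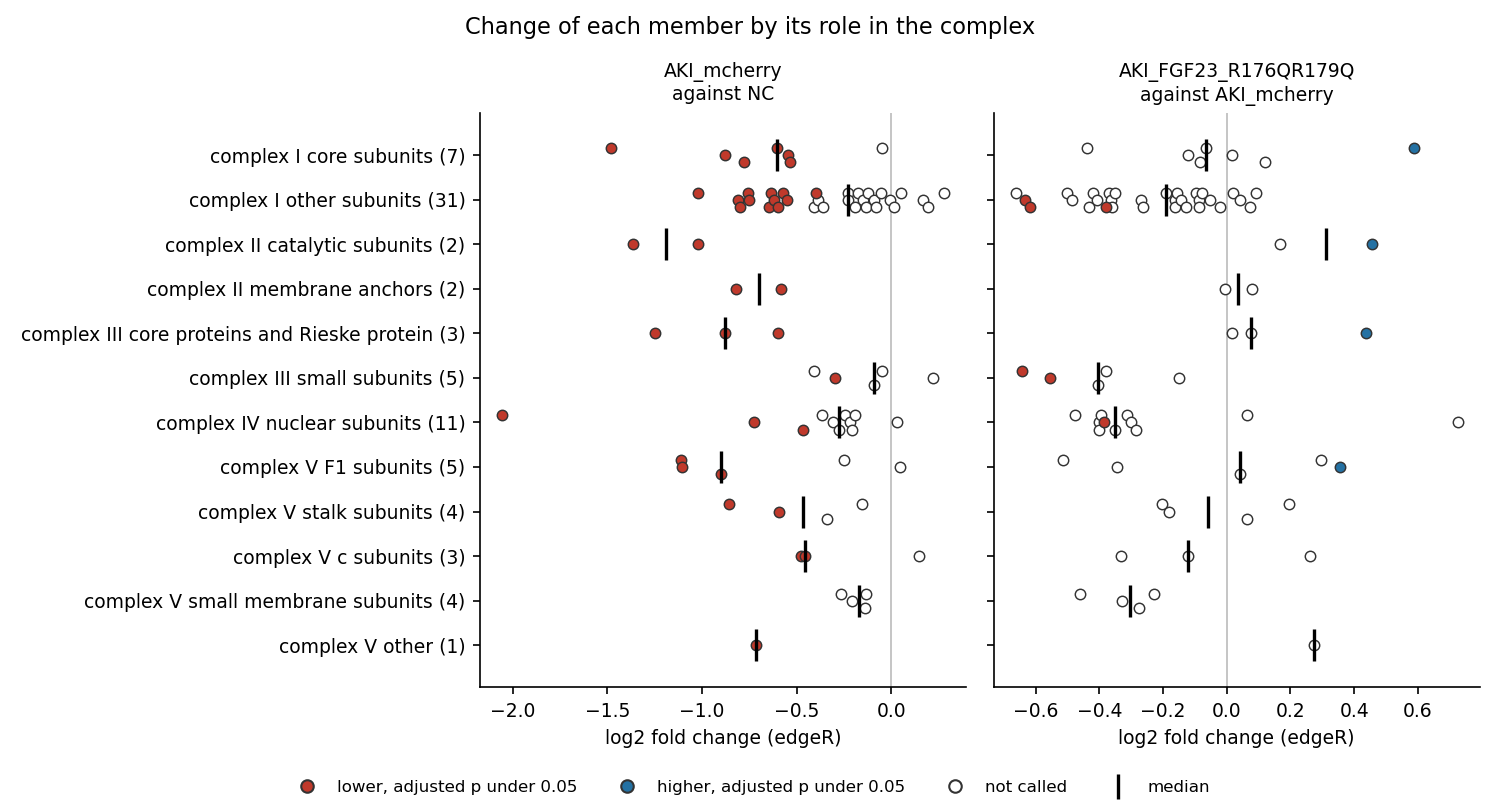
Log2 fold change of each of the 78 tested members (x axis), sorted into rows by its role in the complex (number of genes in brackets), for AKI_mcherry against NC on the left and the variant libraries against AKI_mcherry on the right. Red and blue points are members called lower or higher, open points are not called, and bars are row medians; the catalytic subunits of complex II have a median of -1.19 on the left and 0.31 on the right, and the small subunits of complex III -0.09 and -0.40.

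Among the complexes taken whole, the 4 genes of complex II gave the clearest separation per library. Their median log2 ratio to the NC mean was -0.08 to 0.10 in NC, -1.03 to -0.77 in AKI_mcherry and -0.97 to -0.68 in the variant libraries. For complex I the same medians (over 37 genes of at least 1 CPM in NC) were -0.18 to 0.29 in NC, -0.65 to -0.11 in AKI_mcherry and -0.82 to -0.59 in the variant libraries. Complex IV reached 0.01 in AKI_mcherry replicate 2, inside the range of NC, and was -0.56 in the lowest AKI_mcherry library. In every complex, NC replicate 1 and AKI_mcherry replicate 2 were each the highest library of their group.

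**Figure D2:**
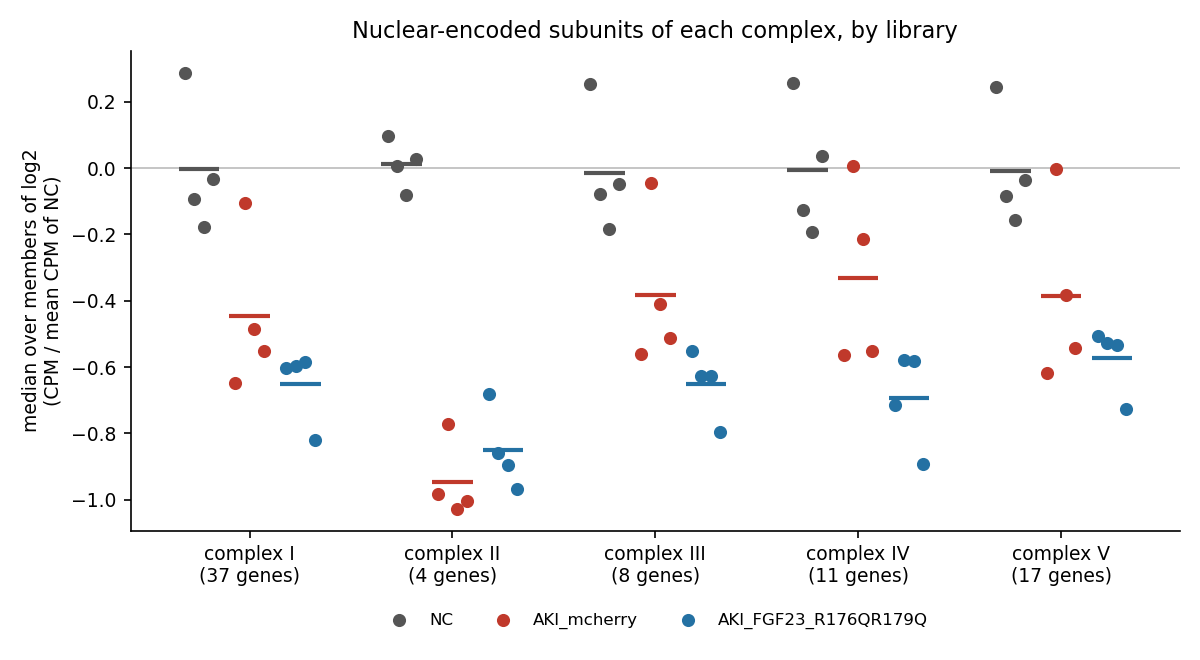
Median over the members of each complex of log2 CPM relative to the NC mean (y axis), 1 point per library and a line at the mean of 4. In complex II the AKI_mcherry and variant libraries all lie at -0.68 or below; in the other complexes AKI_mcherry replicate 2 lies near NC, up to 0.01 for complex IV.

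Complex I takes electrons from NADH through a flavin and a chain of iron-sulfur clusters to ubiquinone. Among the 7 nuclear core subunits tested 6 were lower after injury, with a median log2 fold change of -0.60. Ndufs1, the largest core subunit, which holds several of the iron-sulfur clusters, was 282, 333, 326 and 319 CPM in NC, 134, 83.2, 95.0 and 133 in AKI_mcherry and, with the variant, 188, 157, 158 and 165. The 3 groups did not overlap: AKI_mcherry was lowest and the variant libraries stood between it and NC. Ndufs1 fell by 1.48 (log2, SE 0.16, edgeR adjusted p = 2.69e-05) after injury, which is 2.79-fold, and was higher with the variant (log2 0.59, SE 0.16, edgeR adjusted p = 0.0248).

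Ndufv1, which binds NADH and the flavin, was 324, 291, 282 and 276 CPM in NC, 173, 192, 155 and 156 in AKI_mcherry and, with the variant, 171, 158, 156 and 151. Both injured groups lay below NC and overlapped each other. The fall after injury was 0.78 on the log2 scale (a log2 fold change of -0.78, SE 0.11, edgeR adjusted p = 1.37e-04), and the difference between the injured groups was -0.09 (SE 0.10, edgeR adjusted p = 0.553). Ndufs7, an iron-sulfur core subunit, was the core member not called, with 128, 106, 106 and 103 CPM in NC against 91.4, 144, 100.2 and 86.8 in AKI_mcherry (log2 -0.05, SE 0.16, edgeR adjusted p = 0.816).

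The other 31 tested complex I members had 12 lower after injury and a median of -0.23. Ndufv3, a subunit of the NADH-binding arm, had the lowest value among them: 118, 96.0, 106 and 102 CPM in NC, 46.8, 67.7, 48.4 and 42.1 in AKI_mcherry and, with the variant, 46.1, 42.9, 41.9 and 39.6. The log2 fold change was -1.02 (SE 0.15, edgeR adjusted p = 2.18e-04) after injury and -1.29 (SE 0.09, edgeR adjusted p = 2.40e-06) for the variant libraries against NC, the lowest of complex I in that comparison. Ndufa2 stood at the other end, with 75.3, 50.1, 46.5 and 56.2 CPM in NC and 47.7, 99.8, 73.3 and 51.2 in AKI_mcherry, where replicate 2 alone exceeded every NC library. Its log2 values were 0.28 (SE 0.24, edgeR adjusted p = 0.349) after injury and -0.66 (SE 0.22, edgeR adjusted p = 0.0537) between the injured groups, so neither passed. With the variant, against AKI_mcherry, the highest of these 31 was Ndufa9 at 0.09 (SE 0.10), and in the variant libraries against NC the highest was Ndufa12 at -0.12 (SE 0.20).

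Ndufa1, a small subunit of the membrane arm, was 56.9, 46.5, 45.4 and 54.5 CPM in NC, 33.8, 61.6, 41.9 and 37.6 in AKI_mcherry and, with the variant, 25.2, 29.7, 33.8 and 23.7. In AKI_mcherry 3 libraries lay below every NC library and replicate 2 above them all, while the variant libraries lay at or below the lowest AKI_mcherry library. The difference between the injured groups was -0.63 (log2, SE 0.19, edgeR adjusted p = 0.0361). Ndufa4 was 303, 232, 207 and 249 CPM in NC, 159.6, 230.2, 182 and 169 in AKI_mcherry and, with the variant, 143, 148, 149.6 and 127. It was the 1 member called lower at every step: -0.40 (SE 0.15, edgeR adjusted p = 0.0439) after injury, -0.38 (SE 0.12, edgeR adjusted p = 0.049) between the injured groups and -0.78 (SE 0.12, edgeR adjusted p = 3.44e-04) for the variant libraries against NC. The first of these calls was kept in 2 of 8 fits that left out 1 library, and the second in 1 of 8. Ndufb4c and Ndufs6b carry near copies of Ndufb4 and Ndufs6, so reads may be divided between them, and their values are uncertain.

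Complex II is succinate dehydrogenase, an enzyme of the tricarboxylic acid cycle as well as of the respiratory chain, and all its subunits are nuclear. All 4 genes were lower after injury, with a median log2 fold change of -0.92, and no other complex had every member called. Sdha, the flavoprotein that oxidises succinate, was 759, 847, 822 and 899.5 CPM in NC, 363, 282, 286 and 342 in AKI_mcherry and, with the variant, 476, 422, 426 and 419.6. The groups did not overlap, and the variant libraries lay between the others. Sdha fell 2.58-fold after injury (log2 -1.37, SE 0.12, edgeR adjusted p = 5.31e-06) and was 1.37-fold higher with the variant than in AKI_mcherry (log2 0.46, SE 0.11, edgeR adjusted p = 0.0162).

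Sdhb, the iron-sulfur subunit that binds Sdha, was 445, 379.7, 334 and 313 CPM in NC, 167, 214, 169.6 and 164 in AKI_mcherry and, with the variant, 240.4, 206, 187 and 168. The injured groups overlapped each other and lay below NC (log2 -1.02, SE 0.14, edgeR adjusted p = 1.34e-04 after injury; 0.17, SE 0.13, edgeR adjusted p = 0.383 between the injured groups). The membrane anchors fell less, Sdhc by 1.77-fold (log2 -0.82, SE 0.09) and Sdhd by less (log2 -0.58, SE 0.09, edgeR adjusted p = 3.68e-04). Between the injured groups Sdhc differed by -0.01 (SE 0.08) and Sdhd by 0.08 (SE 0.09).

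Complex III moves electrons from ubiquinol to cytochrome c. Its Rieske iron-sulfur protein and both core proteins were lower after injury, 3 of 3 with a median log2 fold change of -0.88, and 1 of 5 small subunits was called (Uqcrb, in 1 of 8 fits leaving out 1 library), with a median of -0.09. For the small subunits the median became 0.02 with 0 called when libraries were scaled by their totals alone, and -0.39 with 4 called under the length offset. Uqcrc2, a core protein, was 581, 579, 491 and 476 CPM in NC, 243, 204, 199 and 237 in AKI_mcherry and, with the variant, 346, 279, 261 and 306. These groups did not overlap, and the order was NC, variant, AKI_mcherry. It fell 2.37-fold after injury (log2 -1.25, SE 0.12, edgeR adjusted p = 9.23e-06) and was 1.35-fold higher with the variant (log2 0.44, SE 0.12, edgeR adjusted p = 0.0237). Uqcrfs1, the Rieske protein, changed by -0.88 (SE 0.10, edgeR adjusted p = 5.11e-05) and Uqcrc1 by -0.60 (SE 0.11, edgeR adjusted p = 8.10e-04) after injury, and neither was called between the injured groups (0.08 and 0.02).

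Among the small subunits of complex III, Uqcr10 was 192, 135, 117 and 148 CPM in NC, 112, 185, 141 and 125 in AKI_mcherry and, with the variant, 98.3, 104, 94.7 and 85.1. NC and AKI_mcherry covered the same range, and every variant library lay below both. The log2 fold change was -0.05 (SE 0.18, edgeR adjusted p = 0.839) after injury and -0.56 (SE 0.15, edgeR adjusted p = 0.0239) between the injured groups. Uqcrq, also called the ubiquinone-binding protein, had the highest value of the complex after injury (0.22, SE 0.23, edgeR adjusted p = 0.44) and the lowest between the injured groups (-0.64, SE 0.20, edgeR adjusted p = 0.0464). Uqcr11 was lowest in the variant libraries against NC (-0.82, SE 0.15, edgeR adjusted p = 0.00162).

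Complex IV, cytochrome c oxidase, has its catalytic core encoded by the mitochondrial genome, so its nuclear members are structural or regulatory. After injury 3 of 11 were lower, a share of 27.3% against 26.0% for all genes, with a median of -0.28. With the length offset 10 of 11 were lower (median -0.52). Cox4i1, the largest nuclear subunit, was 737, 534, 466 and 536 CPM in NC, 386, 645, 497 and 405 in AKI_mcherry and, with the variant, 346, 372, 379.5 and 289. AKI_mcherry overlapped NC, and the variant libraries lay below all other libraries. The log2 values were -0.21 (SE 0.19, edgeR adjusted p = 0.376) after injury, -0.48 (SE 0.17, edgeR adjusted p = 0.0643) between the injured groups, the lowest of the complex, and -0.69 (SE 0.14, edgeR adjusted p = 0.00283) for the variant libraries against NC.

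Cox7c, a small membrane subunit, was the 1 complex IV member called between the injured groups: 83.8, 114, 106 and 95.7 CPM in AKI_mcherry against 74.0, 78.1, 80.5 and 72.5 in the variant libraries (log2 -0.39, SE 0.10, edgeR adjusted p = 0.026), with 96.3 to 149 in NC. Cox5a, a nuclear subunit on the matrix side, gave 0.03 (SE 0.16, edgeR adjusted p = 0.887) after injury and was the least lowered in the variant libraries against NC (-0.38, SE 0.11, edgeR adjusted p = 0.0177). In that comparison all 11 were lower, with a median of -0.67.

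Subunit 7a exists as a muscle form, Cox7a1, and a general form, Cox7a2. In NC the general form stood at 154 ± 21.2 FPKM (SD, n = 4) and the muscle form at 5.93 ± 2.39 FPKM. Cox7a1 was 6.11, 3.51, 2.30 and 3.64 CPM in NC, 0.561, 1.18, 1.41 and 0.535 in AKI_mcherry and, with the variant, 1.72, 2.06, 1.51 and 0.786. It had the lowest log2 fold change of all members after injury (-2.06, SE 0.41, edgeR adjusted p = 0.00154) and the highest between the injured groups, which was not called (0.72, SE 0.41, edgeR adjusted p = 0.231). Skeletal muscle marker genes (Acta1, Ckm, Mylpf and Tnnt3) summed to at most 1.37 CPM in any library. Cox7a2 fell by 0.47 on the log2 scale (SE 0.15, edgeR adjusted p = 0.0225), and 4 of 8 fits leaving out 1 library kept that call.

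Complex V turns as a rotor in the membrane, the c ring, against a catalytic head, F1. Atp5b and Atp5a1, the beta and alpha subunits that form the head, were the members with the highest levels per length in NC, at 553 ± 44.7 and 549 ± 12.6 FPKM. Those neighbours did not differ beyond their spread. Atp5a1 was 2104, 2097, 2096 and 2078 CPM in NC, 1024, 912, 868 and 1014 in AKI_mcherry and, with the variant, 1307, 1239, 1175 and 1155. The groups did not overlap, and the variant libraries lay between the others. It fell 2.16-fold after injury (log2 -1.11, SE 0.10, edgeR adjusted p = 9.60e-06) and was 1.28-fold higher with the variant (log2 0.36, SE 0.10, edgeR adjusted p = 0.0297).

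Atp5b, the beta subunit with the catalytic sites, was 3060, 2991, 2590 and 2755 CPM in NC, 1387, 1160, 1210 and 1468 in AKI_mcherry and, with the variant, 1750, 1594, 1530 and 1534. Its groups did not overlap either. After injury it changed by -1.10 (SE 0.12, edgeR adjusted p = 2.94e-05), and the 0.30 (SE 0.11) between the injured groups did not pass (edgeR adjusted p = 0.0798). Atp5e, the smallest F1 subunit, was 57.5, 125, 98.2 and 65.0 CPM in AKI_mcherry and overlapped both other groups (0.05, SE 0.25 after injury; -0.51, SE 0.23, edgeR adjusted p = 0.127 between the injured groups, the lowest of the complex). Atp5c1, the central shaft, had the lowest value of the variant libraries against NC (-0.87, SE 0.11, edgeR adjusted p = 1.10e-04). The 4 small membrane subunits had 0 calls after injury and 4 lower in the variant libraries against NC, with a median of -0.49.

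**Figure D3:**
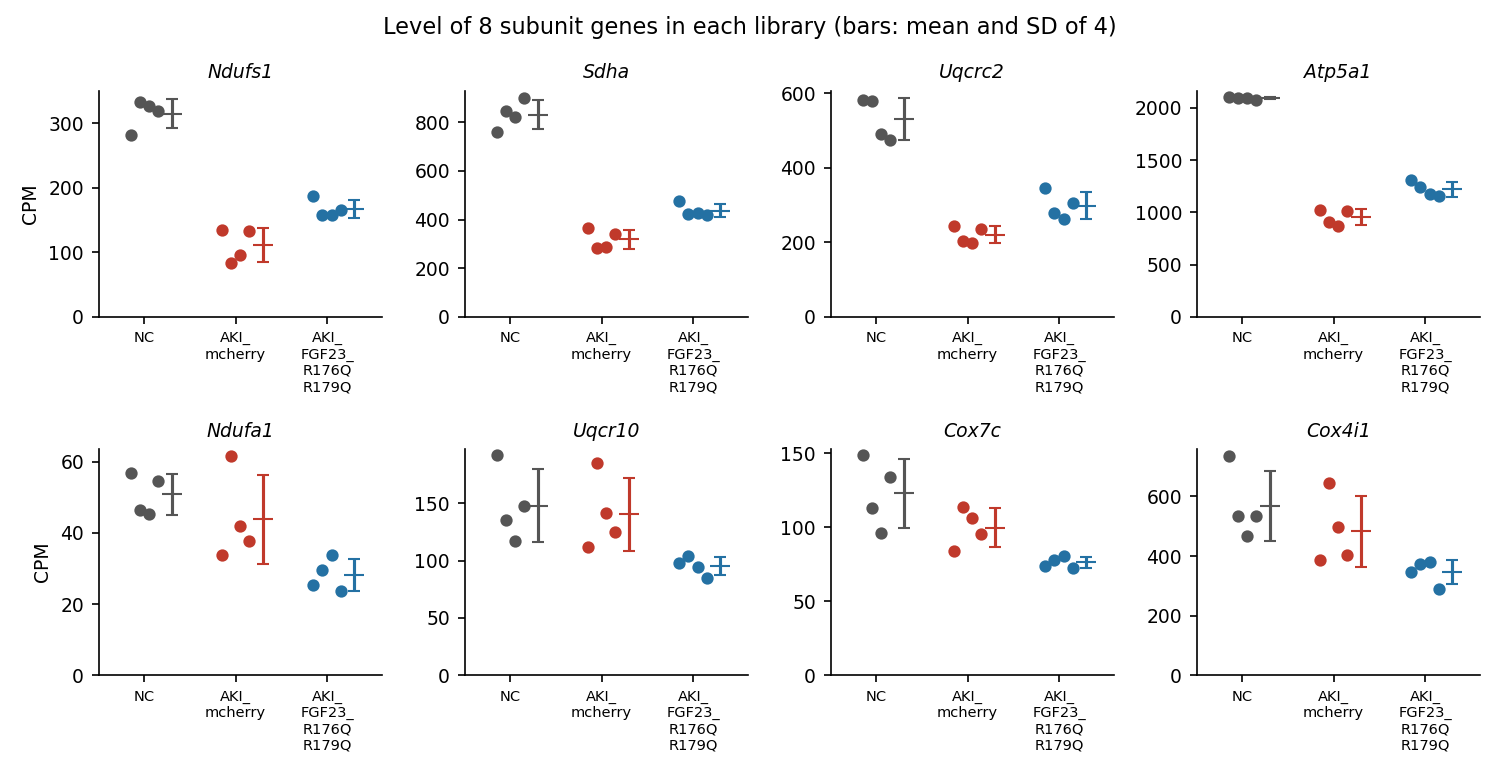
CPM (y axis, from 0) of 8 members in each library, with the mean and SD of 4 beside each group. In the upper row the 4 subunits called higher with the variant lie in the order NC, variant, AKI_mcherry; in the lower row Ndufa1, Uqcr10, Cox7c and Cox4i1 are lowest in the variant libraries, while NC and AKI_mcherry overlap.

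The c subunit of the rotor is made from 3 genes that differ in their mitochondrial targeting sequence and give the same mature protein. Their coding sequences show this. The last 75 codons encode identical residues in all 3 transcripts of the GENCODE annotation (build GRCm38), while Atp5g1 shares 191 of those bases with Atp5g2 (84.9%) and 180 with Atp5g3, and Atp5g2 shares 177 with Atp5g3. The longest identical run between any pair was 20 bases. The stretch of 60 bases below lies in 1 exon of each gene and is shown because it lets a reader see what separates reads of the 3 genes; capitals mark the 18 positions at which they are not all alike.
Atp5g1 (chr11:96073116-96073175, minus strand): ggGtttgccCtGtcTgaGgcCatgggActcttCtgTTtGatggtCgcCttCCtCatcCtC
Atp5g2 (chr15:102663026-102663085, minus strand): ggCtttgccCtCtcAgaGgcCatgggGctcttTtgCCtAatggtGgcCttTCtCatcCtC
Atp5g3 (chr2:73908605-73908664, minus strand): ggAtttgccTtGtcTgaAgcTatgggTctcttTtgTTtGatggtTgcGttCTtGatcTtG

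Per length Atp5g3 was the main c subunit gene in NC, at 178 ± 6.93 FPKM, followed by Atp5g2 at 62.9 ± 7.72 and Atp5g1 at 29.2 ± 4.72 (SD, n = 4). The order of the last 2 rests on the gene length implied by counts and FPKM. In CPM Atp5g1 was the higher of them in NC, with a mean of 175 against 128. Atp5g3 was lower after injury (log2 -0.48, SE 0.13, edgeR adjusted p = 0.00892). Atp5g1 was 208, 144, 152 and 194 CPM in NC, 102, 157, 135 and 107 in AKI_mcherry and, with the variant, 159.7, 161, 145 and 134. Its log2 fold change after injury was -0.46 (SE 0.17, edgeR adjusted p = 0.0392), a call kept in 3 of 8 fits leaving out 1 library, and the difference between the injured groups was 0.26 (SE 0.14, edgeR adjusted p = 0.204). Atp5g2 was 152, 124, 115 and 122 CPM in NC, 122, 169.9, 143 and 124 in AKI_mcherry and, with the variant, 108, 114, 119 and 102, and gave 0.15 (SE 0.13, edgeR adjusted p = 0.384), the highest of complex V after injury.

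Ratios of 2 genes within a library do not depend on how libraries are scaled and show only unequal change. The count ratio of Atp5g1 to Atp5g2 was 1.37, 1.17, 1.32 and 1.59 in NC, 0.836, 0.924, 0.944 and 0.866 in AKI_mcherry and, with the variant, 1.48, 1.42, 1.21 and 1.32. Atp5g1 had more counts than Atp5g2 in every NC and variant library and fewer in every AKI_mcherry library. The difference was 1.52-fold in both comparisons with AKI_mcherry, each with an exact two-sided permutation p = 0.0286, the smallest that 70 assignments of 4 against 4 libraries allow. Over the 18 tests of 6 ratios in 3 comparisons, the adjusted p was 0.0857, and 0 of 18 passed 0.05. The lengths implied by counts and FPKM were 5348 bases for Atp5g1 and 1824 for Atp5g2, and the part of this difference in length in the ratio was not tested.

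Atpif1, the inhibitor of ATP hydrolysis by complex V, falls outside the symbol rule. Its count ratio to Atp5b was 0.0573, 0.0459, 0.0481 and 0.0487 in NC, 0.0713, 0.133, 0.0998 and 0.0759 in AKI_mcherry and, with the variant, 0.0588, 0.0626, 0.0804 and 0.0634. Both injured groups lay above NC and overlapped each other. The ratio was 1.85-fold higher in AKI_mcherry and 1.32-fold higher in the variant libraries than in NC (exact two-sided permutation p = 0.0286 each, adjusted p = 0.0857). Atpif1 itself was not called after injury (log2 -0.21, SE 0.15, edgeR adjusted p = 0.27).

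The other ratios concern isoforms and partners within a complex. Cox7a1 to Cox7a2 was 3.08-fold lower in AKI_mcherry than in NC without overlap (exact permutation p = 0.0286, adjusted p = 0.0857). Sdhb to Sdha and Ndufa4 to Cox4i1 overlapped between groups in every comparison (exact permutation p from 0.0857 to 0.8). Atp5g1 to Atp5g3 was 1.34-fold higher in the variant libraries than in NC (exact permutation p = 0.0286, adjusted p = 0.0857) and 1.31-fold higher than in AKI_mcherry, with overlap.

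**Figure D4:**
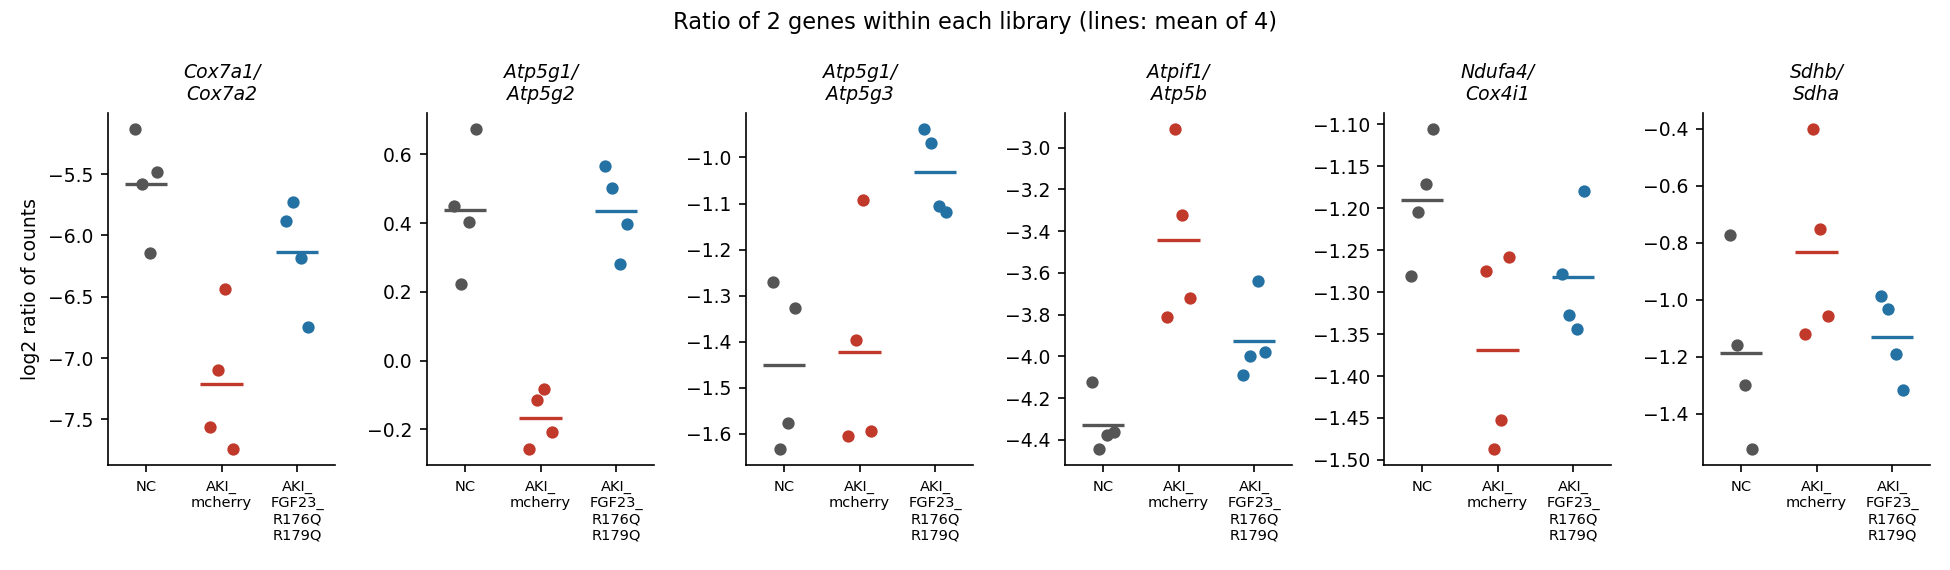
Log2 ratio of counts of 2 genes within each library (y axis, separate scale in each panel), 1 point per library and a line at the mean of 4. Atp5g1 over Atp5g2 lies below 0 in the 4 AKI_mcherry libraries and above 0 in the other 8; Atpif1 over Atp5b is lowest in NC.

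Gene length, here the length implied by counts and FPKM, moved with these changes. In AKI_mcherry against NC, genes outside the list with a length under 1000 bases (453 genes above 5 FPKM on average) had a median log2 fold change of 0.50, and those of at least 4000 bases -0.03. The members' medians in the same classes were -0.19 (17 members) and -0.68 (10 members), so members lay below other genes of their length in both. With the variant, against AKI_mcherry, the short other genes had a median of -0.33 and the short members -0.36, while genes of at least 4000 bases gave 0.03 for other genes and 0.13 for members. Across 76 members with an implied length, Pearson's r between log2 length and log2 fold change was -0.44 after injury and 0.50 between the injured groups (Spearman's rho -0.42 and 0.46), a description over genes that share their libraries.

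AKI_mcherry replicate 2 stood apart in this respect. Members under 1000 bases had a median log2 ratio to the NC mean of 0.16 in that library and of -0.49, -0.27 and -0.43 in the other 3; other genes of that length had 0.72 against 0.30, 0.47 and 0.39. Without it, 50 members were lower after injury in place of 37, and the count between the injured groups became 4 higher and 1 lower. Over all members the length offset gave 62 lower and 0 higher after injury (median -0.59), 6 higher and 2 lower between the injured groups (median -0.02) and 75 lower for the variant libraries against NC. The 6 higher were Ndufs1, Sdha, Uqcrc2, Atp5a1, Cox7b and Atp5s.

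**Figure D5:**
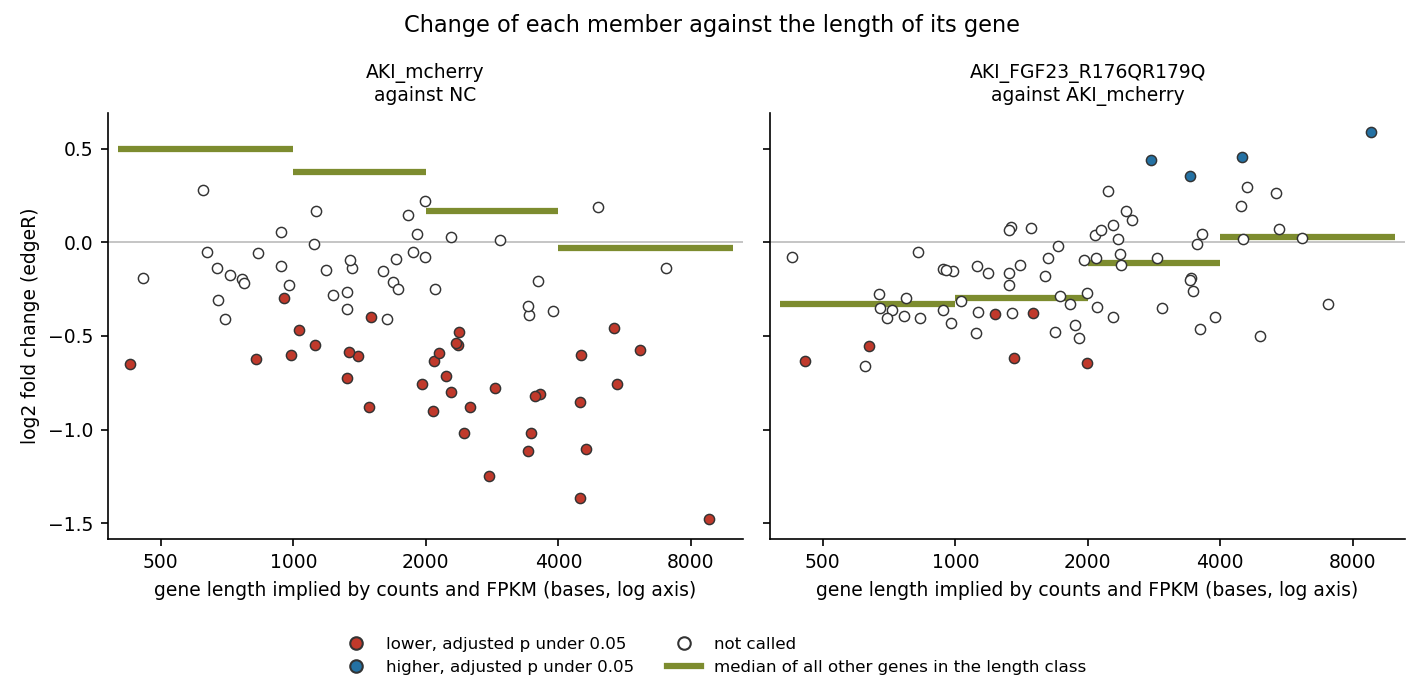
Log2 fold change (y axis) of 76 members against the gene length implied by counts and FPKM (x axis, log scale), for AKI_mcherry against NC on the left and the variant libraries against AKI_mcherry on the right. Green bars are medians of all other genes in 4 length classes; on the left they fall from 0.50 to -0.03 with most members below them, and on the right they rise from -0.33 to 0.03 with members spread about them.

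The calls between the injured groups rested on few libraries and on the scaling. Of the 4 members called higher, Sdha kept its call in 7 of 8 fits that left out 1 library, Ndufs1 in 5, and Uqcrc2 and Atp5a1 in 4 each; of the 6 called lower, Uqcr10 kept it in 6, Ndufa1 and Cox7c in 3, Ndufa13 and Uqcrq in 2 and Ndufa4 in 1. The counts higher and lower were 0 and 0 without variant replicate 1, 3 and 1 without replicate 2, 4 and 4 without replicate 3 and 1 and 0 without replicate 5. On the AKI_mcherry side they were 4 and 15 without replicate 1, 4 and 1 without replicate 2 and 1 and 2 without replicate 3. With libraries scaled by their totals alone, 13 members were higher and 0 lower and the members' median turned from -0.17 to 0.04, while the median of all genes moved from 0.01 to 0.21. That scaling moved the median of all genes to 0.12 after injury, with 34 members lower, and to 0.34 for the variant libraries against NC, with 38 lower; over all genes it called 4060 higher and 1035 lower between the injured groups in place of 2199 and 2148, and 7829 and 2096 against NC in place of 4123 and 3912. The 4 members called higher were called under every scaling tried (TMM, RLE, upper quartile, and library totals with and without mitochondrially encoded genes).

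The 13 subunits encoded by the mitochondrial genome, which join the nuclear members in complexes I, III, IV and V, were listed for comparison. After injury 5 of 13 were lower (38.5%, against 26.0% of all genes) and 0 higher (against 27.2%), with a median of -0.14. The lowest was mt-Nd4l (-1.01, SE 0.16, edgeR adjusted p = 4.29e-04) and the highest mt-Nd3 (0.15, SE 0.22, edgeR adjusted p = 0.598). Between the injured groups 11 of 13 were lower (84.6%, against 11.4% of all genes), with a median of -0.67. Values ran from mt-Nd3 (-0.92) to mt-Nd4l (-0.11), and 9 were lower when libraries were scaled by their totals. All 13 were lower in the variant libraries than in NC (median -0.93), where 20.6% of all genes were lower. Genes named with mt- took 15.3% to 16.9% of counts in NC, 13.8% to 17.1% in AKI_mcherry and 10.9% to 13.1% in the variant libraries.

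Enzymes of the tricarboxylic acid cycle, which feed electrons to the chain, are listed next. After injury 14 of 16 were lower (87.5%, against 26.0% of all genes), with a median of -0.84. Values ran from Suclg1, a subunit of succinyl-CoA ligase (-1.39, SE 0.09), to Mdh2, malate dehydrogenase (0.10, SE 0.13, not called). Between the injured groups 5 of 16 were higher (31.25%, against 11.7% of all genes) and 0 lower, with Suclg1 at 0.50 (SE 0.10, edgeR adjusted p = 0.00721). Of 43 assembly factors 15 were lower (34.9%, against 26.0% of all genes) and 7 higher (16.3%, against 27.2%) after injury, from Acad9, needed for complex I (-1.30, SE 0.14), to Uqcc2, needed for complex III (1.63, SE 0.27, edgeR adjusted p = 5.25e-04). Among electron carriers and ubiquinone synthesis genes 6 of 11 were lower (54.5%, against 26.0%) and 1 higher (9.09%, against 27.2%) after injury. Coq8a, a kinase-like protein of ubiquinone synthesis, was lowest (-2.65, SE 0.16) and higher with the variant (1.09, SE 0.16, edgeR adjusted p = 0.00223). Of 27 mitochondrial ribosomal proteins 8 were higher (29.6%, near the 27.2% of all genes) and 4 lower (14.8%) after injury, with a median of 0.18, and 8 (29.6%, against 11.4% of all genes) were lower between the injured groups. Of 22 genes for import and the mitochondrial membranes 6 were higher (27.3%) and 5 lower (22.7%) after injury, shares near those of all genes, from Slc25a5 (-1.40) to Timm10 (0.95).

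Regulators of mitochondrial genes form the last list. Ppargc1a, a coactivator that drives mitochondrial biogenesis, was 62.3, 60.7, 68.6 and 66.8 CPM in NC, 19.7, 16.9, 14.8 and 20.3 in AKI_mcherry and, with the variant, 51.3, 46.7, 33.8 and 46.0. The groups did not overlap, with the variant libraries between the others. It was 3.55-fold lower after injury (log2 -1.83, SE 0.12, edgeR adjusted p = 7.89e-07) and 2.48-fold higher with the variant (log2 1.31, SE 0.15, edgeR adjusted p = 6.43e-04). Of the 15 regulators listed 10 were lower (66.7%, against 26.0% of all genes) and 3 higher (20%, against 27.2%) after injury. Between the injured groups 5 were higher (33.3%, against 11.7% of all genes) and 1 lower (6.67%, against 11.4%).

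Esrra, the nuclear receptor through which this coactivator acts on respiratory genes, was 141, 132, 130.2 and 149.6 CPM in NC, 66.7, 68.2, 74.2 and 71.9 in AKI_mcherry and, with the variant, 95.9, 88.8, 79.7 and 81.1. The groups again did not overlap (log2 -0.95, SE 0.09, edgeR adjusted p = 6.90e-06 after injury; 0.30, SE 0.09, edgeR adjusted p = 0.0353 with the variant, kept in 2 of 8 fits leaving out 1 library). Nrf1 was higher after injury (0.38, SE 0.11, edgeR adjusted p = 0.0147), Gabpa lower (-0.39, SE 0.11, edgeR adjusted p = 0.0138) and Tfam, the factor of mitochondrial transcription, lower (-0.44, SE 0.10, edgeR adjusted p = 0.00439). None of these 3 was called between the injured groups (-0.03, 0.29 and 0.03). At the ends of the list stood Ppara (-2.32, SE 0.29) and Pprc1 (1.61, SE 0.14) after injury.

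Binding motifs of such factors were searched, as exact letters on both strands, in the RefSeq promoter windows (build GRCm38.p6, 250 bases before to 50 after the start) of the 64 members matched by symbol or synonym. No motif contains another, and a window counts once however many matches it holds. The NRF1 core GCGCATGCG was in 8 of 64 members (12.5%), against 1.75% of all 32851 windows and 3.47% of the genes tested that have a window. The ETS motif CCGGAAGT, bound by GABPA, was in 5 (7.81%), against 3.89% and 7.82%. The YY1 motif AAGATGGCG was in 7 (10.9%), against 1.40% and 3.01%, and the site of estrogen-related receptors TCAAGGTCA in 2, Atp5g3 and Sdhd (3.13%), against 0.423% and 0.341%. In all 21 members held at least 1 of the 4 motifs. A match is a description of these letters and no site of binding was measured.

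The stretches shown hold each motif wholly before the start, as it does in 6 of the 8 members for NRF1, 3 of 5 for ETS, 1 of 7 for YY1 and 1 of 2 for the estrogen-related receptor site; among those members the one with the lowest log2 fold change after injury was taken, so that the letters upstream of a start can be seen. Members with lower values hold the motif across, at or after the start and are not shown: Uqcrc1 (-0.60) and Uqcr11 (-0.41) for NRF1, Ndufs3 (-0.55) for ETS, Ndufa9 (-0.80) and Ndufc1 (-0.41) for YY1 and Sdhd (-0.58) for the receptor site. Of these Uqcr11 and Ndufc1 did not pass the test after injury. Capitals mark the motif, which in Atp5g3 lies on the opposite strand.
Cox6a1, NRF1 core (chr5:115349082-115349150, minus strand): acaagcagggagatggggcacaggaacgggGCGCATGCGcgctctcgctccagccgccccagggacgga
Uqcr11, ETS (chr10:80406850-80406917, minus strand): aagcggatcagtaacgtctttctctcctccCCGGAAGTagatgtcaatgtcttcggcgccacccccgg
Atp5j, YY1 (chr16:84835026-84835094, minus strand): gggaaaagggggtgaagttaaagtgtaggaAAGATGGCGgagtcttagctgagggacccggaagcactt
Atp5g3, estrogen-related receptor site (chr2:73911340-73911408, minus strand): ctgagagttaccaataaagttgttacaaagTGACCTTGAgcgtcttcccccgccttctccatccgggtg
Of these members Atp5g3 fell after injury, while the log2 fold changes of Cox6a1 (-0.19), Uqcr11 (-0.41) and Atp5j (-0.34) were not called.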

How the data were processed

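Poly(A) RNA of mouse renal tissue was sequenced in 12 libraries; sample titles gave 3 groups of 4. The authors deposited a table of counts and FPKM values for 32047 genes (105 without a symbol) and 1 file per sample, whose values equalled those of the table in all 12. Per the submitters' processing notes fastp, StringTie, edgeR and the build GRCm39 were used; no source used here gives the aligner or any version. The deposited FPKM values were used for levels between genes and, with the counts, for an implied gene length. Over the table a count of 4 occurs 11995 times against 5847 times for 3 and 3638 times for 5.

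For each comparison its 8 libraries alone entered edgeR 4.0.16 (quasi-likelihood F test, filterByExpr, TMM factors) in R 4.3.3, with Benjamini-Hochberg adjustment over all genes tested and a threshold of 0.05. The standard error is the size of the log2 fold change over the root of F. Ratios of counts within a library were compared by exact two-sided permutation. Alternatives used limma 3.58.1, DESeq2 1.42.0, other scalings, filters and left-out libraries; other steps used Python 3.11.15, pandas 2.3.3, numpy 2.4.6, scipy 1.17.1 and matplotlib 3.10.9. The fit was tested on simulated counts.

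The members, lists and roles were chosen with earlier results of these data known. Named genes are a fixed list of members and regulators plus the highest and lowest log2 fold change in each complex and pathway list; Ndufs7, Ndufa13, Ndufa1, Uqcr10, Cox7c and the promoter examples were added after their values were seen where that rule does not name them. Promoters are from RefSeq (GRCm38.p6) and coding sequences from GENCODE (GRCm38), and no coordinate was converted between builds. Replicate numbers shared by groups did not pair the libraries (correlations of their deviations from -0.15 to 0.11). The values of 1 member of the fixed list are not reported here.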

Additional observations from a re-analysis of the deposited data

Results flagged for a closer look

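In 8 groups of 4 libraries 1 library stood far from the other 3, by a gap above Dixon's 95% critical value; chance gives about 1 in 20, and 117 groups were examined. Sdha was 476 CPM in replicate 1 of the variant libraries and 419.6 to 426 in the others, and its call against AKI_mcherry was lost without that library. Sdhb was 214 CPM in AKI_mcherry replicate 2, with 164 to 169.6 in the others. Atp5c1 was 339.9 CPM in the same library, with 274 to 281 in the others. Uqcrfs1 was 184 CPM in AKI_mcherry replicate 3, with 213 to 217 in the others. Cox7a2 was 214 CPM in NC replicate 1, with 163 to 168 in the others. Replicate 5 of the variant libraries was lowest for the median over all members (-0.80 against -0.60 to -0.57), for complex I (-0.82 against -0.60 to -0.59) and for complex V (-0.73 against -0.53 to -0.51), as log2 ratios to the NC mean.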

How the results depend on the processing

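After injury 30 to 62 members were lower and 0 higher under every setting tried, the highest count coming from the offset by gene length, and leaving out 1 library gave 32 to 50. Against NC the variant libraries had 38 members lower with library totals, 43 with totals without mt- genes, 35 on log2(FPKM + 1), 42 with the replicate block and 54 to 75 under the other settings (60 to 70 leaving out 1 library). Between the injured groups the counts higher and lower were 13 and 0 with library totals, 9 and 1 with totals without mt- genes, 14 and 0 on log2(FPKM + 1), 4 and 2 without a filter on low counts, 6 and 2 with the length offset, 5 and 15 with DESeq2, and 0 and 0 when a log2 fold change of 0.3 was tested against. Leaving out 1 library gave 0 to 4 higher and 0 to 15 lower. The replicate block, which keeps the 3 numbers these groups share, gave 1 (Ndufs1) and 0, and the same libraries without the block 0 and 0; after injury the block gave 34 lower. The length offset and the unblocked fit were chosen after seeing the data. No called value of a named gene turned its sign; values called in neither fit changed sign 8 times after injury, 28 times between the injured groups and 14 times against NC. The cause of these shifts was not tested. With 4 libraries a group the exact test cannot go below 0.0286, and members such as Cox7a1, at 0.535 to 6.11 CPM, rest on few counts.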

Other observations

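Among tissue isoforms outside the symbol rule, Cox6a2, the heart and muscle form of subunit 6a, was 0.531 to 0.901 CPM in NC, 1.43 to 2.55 CPM in AKI_mcherry and 4.24 to 6.39 CPM with the FGF23 variant. The groups did not overlap. Its log2 fold changes were 1.58 after injury, 1.48 between the injured groups and 3.06 with the variant against NC, opposite in sign to Cox7a1 after injury (-2.06). Of the 10 isoforms and paralogs listed 6 were tested, and Cox8c and Uqcrhl were not found among the genes measured. The list holds Ndufab1, an Nduf symbol that the rule leaves out of complex I.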
